A study of Mus musculus with 6 samples.

Results

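The perilipins are a family of 5 proteins, encoded by Plin1, Plin2, Plin3, Plin4 and Plin5, that coat the lipid droplets in which cells store triglyceride and that govern how readily lipases reach the stored fat. Plin1 is the coat protein of adipocyte droplets, Plin2 and Plin3 are made in most tissues, Plin4 coats small nascent droplets in adipocytes and muscle, and Plin5 is abundant in oxidative tissues, where it ties droplets to mitochondria. Plin2 is degraded when it is not bound to a droplet, and its gene is a target of the fatty acid receptors of the PPAR group. The genes were followed by name through all 6 arrays of the series, represented by the brightest probe set where a gene has several. All 5 had exactly 1 probe set tied to their symbol alone, so 5 of the 19938 genes named on the arrays are described.

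The cells were C2C12, a mouse myoblast line, which had been differentiated into myotubes for a week in medium with 2% serum. They had been transfected with 10 nM of a scrambled siRNA or of an siRNA against Plin2, and treated for 20 h with albumin (BSA) alone, with 200 µM oleate on BSA, or with 200 µM palmitate on BSA. Each of these 6 conditions, scrambled or Plin2 siRNA with BSA, oleate or palmitate, was measured on 1 array, and all cells went through transfection. The labels do not say whether the cultures were separate, so it is not known whether a p-value covers spread between cultures. The number of arrays limits the precision. With 1 array per condition, the error of the fit also holds any difference of the siRNA change between treatments. Values are log2 expression, so a difference of 1 is a doubling. Probes differ in affinity, so levels were compared between arrays and never between perilipins.

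The arrays carried the signal of muscle. All 20 myotube markers measured lay above the median of every array, with list means of 10.77 to 11.17 in scrambled and 10.73 to 10.82 in Plin2 siRNA arrays. Of these 20 markers, 3 rose and 10 fell with Plin2 siRNA, a share of 65% called against 17.1% of all genes, and of 8 undifferentiated myoblast markers 2 rose and 2 fell. None of the 20 muscle markers passed with either fatty acid, where 0.0802% of all genes passed with oleate and 0.0100% with palmitate. All 20 had a fitted change below 0 with palmitate (median -0.22), and 18 with oleate (median -0.10). The medians over all genes were -0.01 and -0.02. An unadjusted limma p under 0.05 was seen for 11 with palmitate and 4 with oleate, against 1037 and 1241 of 19938 genes. The part of these shifts in the results on perilipins was not tested. Of 10 adipocyte markers measured, Plin1 among them, 5 lay below the median of every array, among them the adipocyte hormone gene Adipoq at 3.41 to 3.54. Above the median of every array lay 3, the transcription factor genes Pparg (6.87 to 7.35) and Cebpa (6.27 to 6.89) and the lipase gene Pnpla3 (5.09 to 5.29). The adipocyte list means were 4.71 to 4.85 in scrambled and 4.74 to 4.89 in Plin2 siRNA arrays. Macrophage markers had list means of 4.09 to 4.30 and 4.07 to 4.14, and undifferentiated myoblast markers of 7.25 to 7.36 and 7.25 to 7.33. Above the median of every array lay 7 of the 8 undifferentiated myoblast markers too, and 0 of the 8 macrophage markers. In RNA from whole cultures, fewer cells of a type and less RNA per cell cannot be told apart.

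The perilipin genes differ in the sequence just upstream of their starts. The 3 printed here are those of Plin2, which rose with oleate in these arrays, of Plin3, which moved least, and of Plin5, the perilipin of oxidative muscle. They are the 250 bases before the start, from RefSeq on the GRCm38.p6 build, all on the minus strand. Capitals mark the letters AGGTCA or their reverse complement TGACCT, the hexamer that PPAR and other nuclear receptors bind, and CANNTG, the E-box bound by myogenic factors, which reads the same on both strands.
Plin2, chr4:86670060-86670309: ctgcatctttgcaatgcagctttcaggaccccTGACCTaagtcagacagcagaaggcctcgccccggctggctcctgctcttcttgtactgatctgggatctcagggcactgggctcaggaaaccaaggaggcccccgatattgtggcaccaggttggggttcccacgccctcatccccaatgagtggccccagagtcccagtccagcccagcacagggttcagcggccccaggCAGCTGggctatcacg
Plin3, chr17:56290512-56290761: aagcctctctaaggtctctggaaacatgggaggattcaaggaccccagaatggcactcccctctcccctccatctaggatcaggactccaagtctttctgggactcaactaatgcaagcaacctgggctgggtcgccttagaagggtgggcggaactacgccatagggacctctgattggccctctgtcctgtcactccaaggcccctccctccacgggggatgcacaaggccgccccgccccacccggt
Plin5, chr17:56117549-56117798: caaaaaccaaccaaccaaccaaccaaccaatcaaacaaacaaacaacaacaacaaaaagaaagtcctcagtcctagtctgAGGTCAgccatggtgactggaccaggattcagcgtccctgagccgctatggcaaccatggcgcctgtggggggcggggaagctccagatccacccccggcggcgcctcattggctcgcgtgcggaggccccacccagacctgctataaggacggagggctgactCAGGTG
The Plin2 window holds 1 hexamer, TGACCT, which begins 218 bases before the start, and 1 E-box, CAGCTG, 16 bases before it. The Plin3 window holds neither. The Plin5 window holds 1 hexamer, AGGTCA, 170 bases before the start, and 1 E-box, CAGGTG, 6 bases before it. RefSeq gives Plin5 a second start downstream, whose window holds 3 E-boxes and no hexamer. The windows of Plin1 (chromosome 7) and Plin4 hold 2 and 1 E-boxes and no hexamer. Plin3, Plin4 and Plin5 all lie on chromosome 17. The hexamer occurs in 14.0% and an E-box in 66.2% of all 32851 windows of this length, and the full PPAR element, AGGTCANAGGTCA on either strand, in 0.0335% of them and in 0 of the 6 perilipin windows. The letters TATAAA, read on the gene's strand, occur in 7.59% of all windows and in none of these 6. These matches describe the letters and show no binding.

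Plin2, the target of the siRNA, was measured first. In cells with scrambled siRNA it stood at 9.29 with BSA, 10.03 with oleate and 10.10 with palmitate. In cells with Plin2 siRNA it stood at 6.95, 7.63 and 7.45. All 3 knockdown arrays lay below all 3 scrambled arrays, and the lowest scrambled value, that with BSA, was above the highest knockdown value, that with oleate.

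The siRNA left 19.7% of the scrambled level of Plin2 with BSA, 18.9% with oleate and 15.9% with palmitate. The fitted change was -2.47 (SE 0.08, 95% confidence interval -2.64 to -2.29, n = 3 pairs of arrays, limma adjusted p = 2.3e-08), which is a fold of 0.181. It was the only perilipin of the 5 to pass the threshold of adjusted p under 0.05 in this comparison, in which 17.1% of the 21789 probe sets tested passed. Plin2 fell in 3 of 3 pairs, and 14.7% of all probe sets likewise had their 3 knockdown arrays below their 3 scrambled arrays. Plin2 also varied more than almost any other gene: its values spanned 3.16 log2 units over the 6 arrays, and 8 of the 21789 probe sets spanned more.

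Fatty acid did not bring the silenced gene back to its unsilenced level. With Plin2 siRNA, Plin2 in oleate was 31.6% of its level in scrambled cells given BSA, and in palmitate 27.9%. Each of these 2 values rests on 1 array against 1 and has no test.

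**Figure D1:**
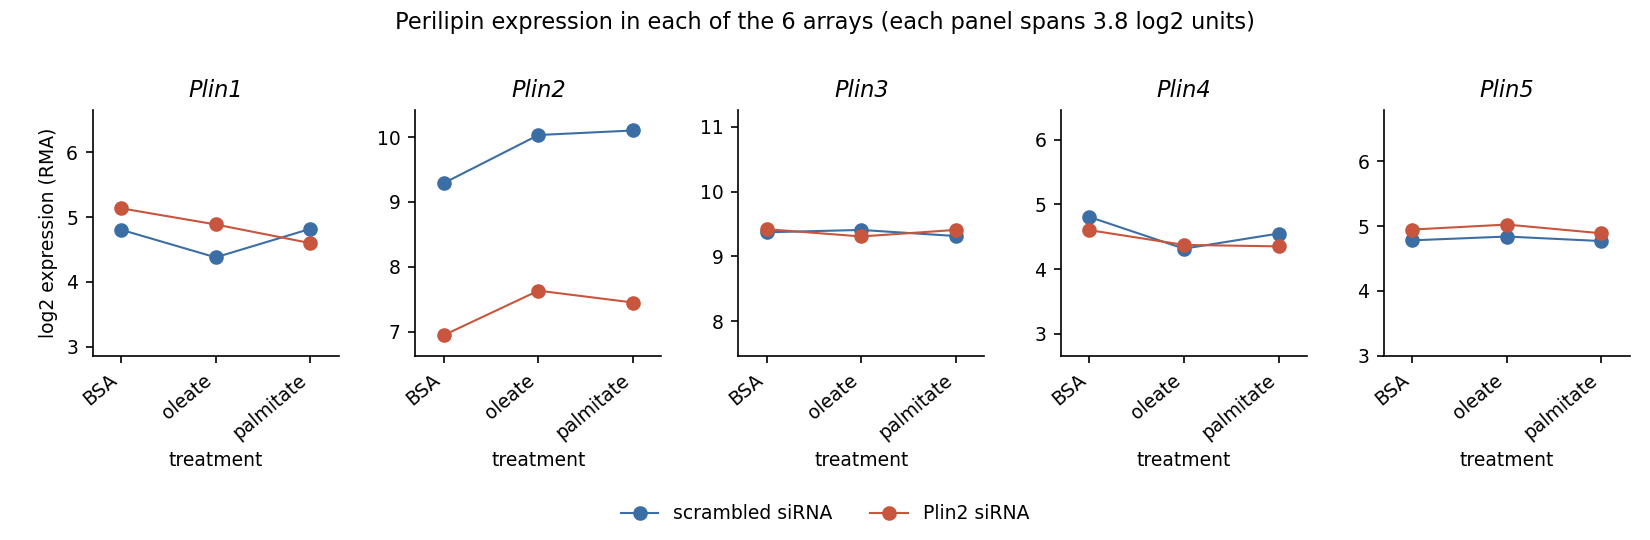
Log2 expression (RMA, vertical axis) of each perilipin by treatment (horizontal axis), 1 point per array, with lines joining the arrays of 1 siRNA; every panel spans the same number of log2 units. Plin2 separates the siRNAs and is higher with both fatty acids than with BSA within each, while Plin3 stays between 9.31 and 9.42 in all 6 arrays.

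Plin2 was higher with fatty acid under both siRNAs. Oleate moved it by 0.74 under scrambled siRNA and by 0.69 under Plin2 siRNA, folds of 1.67 and 1.61. The fitted change was 0.71 (SE 0.10, 95% confidence interval 0.50 to 0.93, n = 2 pairs of arrays, limma adjusted p = 0.023). So 1 of the 5 perilipins rose with oleate, in a comparison in which 0.0734% of probe sets passed. The call did not hold in 5 of 15 other settings, among them the fit without the scrambled BSA array, where the change was 0.62 (limma adjusted p = 0.43).

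Palmitate moved Plin2 by 0.81 under scrambled siRNA and by 0.50 under Plin2 siRNA, folds of 1.76 and 1.42. The fitted change was 0.66 (SE 0.10, 95% confidence interval 0.44 to 0.87, n = 2 pairs of arrays), and it did not pass (limma adjusted p = 0.16, unadjusted p = 3.0e-05). With limma 0 of the 5 perilipins passed with palmitate, 1 had an unadjusted p under 0.05, and 0.00918% of probe sets passed. Plin2 passed in 4 of 14 other settings: on the BSA and palmitate arrays alone, without either oleate array, and without the Plin2 siRNA palmitate array. Without either oleate array, the change of 0.66 and SE of 0.10 were those of the BSA and palmitate arrays alone. These settings are therefore not separate support. The main fit gave the same change and SE, so these passes do not come from a larger change. Oleate and palmitate are compared with the same 2 BSA arrays, so their changes are not independent of each other.

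The fatty acids themselves, oleate with 1 cis double bond and palmitate saturated and shorter, were set against each other at the same dose and time as 1 pair of compounds. For Plin2 the difference, palmitate minus oleate, came to 0.07 with scrambled siRNA and -0.18 with Plin2 siRNA. The fitted difference was -0.06 (95% confidence interval -0.27 to 0.16, n = 2 pairs of arrays, limma adjusted p = 0.92), an interval of folds from 0.828 to 1.12. No perilipin of the 5 passed with limma, 0 had an unadjusted p under 0.05, and 0.262% of probe sets passed. The fatty acid response of Plin2 was smaller with Plin2 siRNA by 0.18, which was not told apart from 0 (SE 0.19, 95% confidence interval of the interaction -0.58 to 0.22, limma adjusted p = 1.00). In that test 0 of 5 perilipins and 0 of 21789 probe sets passed, while 551 probe sets and 0 perilipins had an unadjusted p under 0.05.

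**Figure D2:**
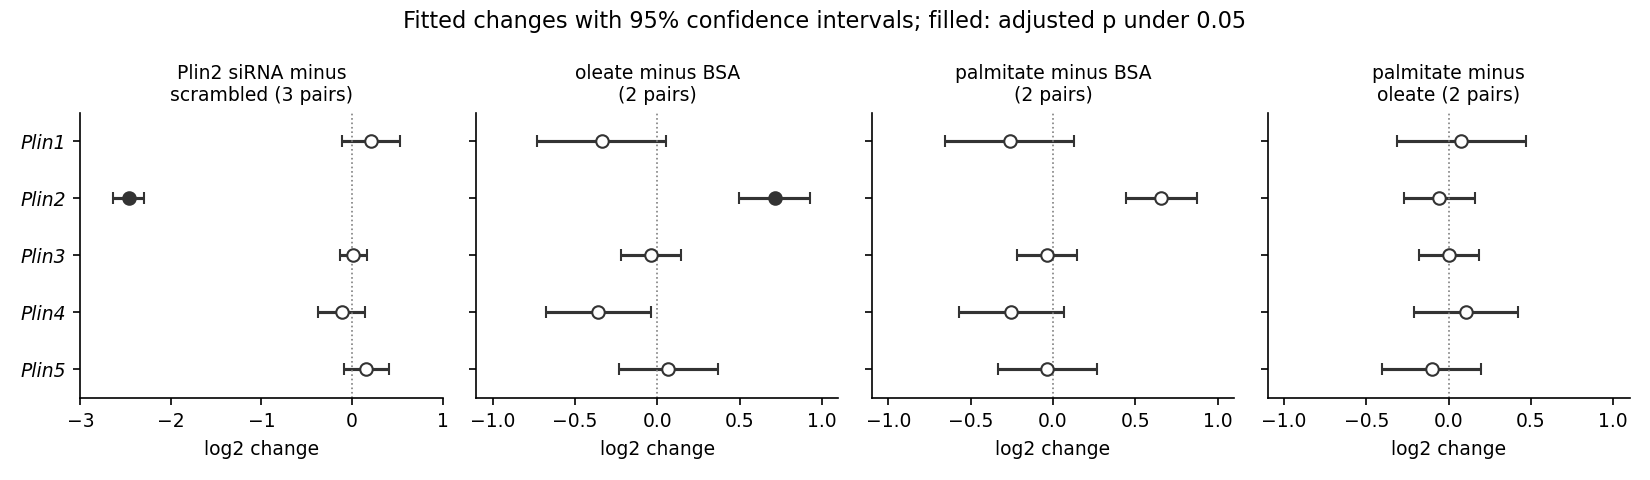
Fitted log2 changes (horizontal axis) of the 5 perilipins (rows) in 4 comparisons, with 95% confidence intervals; filled points passed adjusted p under 0.05. The filled points are Plin2 with its siRNA at -2.47 and Plin2 with oleate at 0.71, and the other 4 genes have no filled point.

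Plin3, the perilipin that moves from the cytosol onto new droplets, was nearly level. It stood at 9.37, 9.41 and 9.32 in scrambled cells with BSA, oleate and palmitate, and at 9.42, 9.31 and 9.41 in Plin2 siRNA cells. These values overlap and span 0.11 log2 units, less than the span of all but 1.61% of probe sets, whose median span was 0.38. Its change with Plin2 siRNA was 0.01 (SE 0.07, limma adjusted p = 0.94, over 3 array pairs), and its direction differed among the pairs, with 2 higher and 1 lower. The 95% confidence interval of -0.14 to 0.16 covers folds from 0.910 to 1.12. With oleate the change was -0.04 (interval -0.22 to 0.15) and with palmitate -0.03 (interval -0.22 to 0.15).

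Plin5 stood slightly higher in every Plin2 siRNA array, but not beyond the error of the fit. Its values were 4.78, 4.84 and 4.77 in scrambled cells with BSA, oleate and palmitate, and 4.95, 5.02 and 4.89 in Plin2 siRNA cells. The groups did not overlap, and the 3 pairs gave 0.17, 0.18 and 0.12. Complete separation in this direction was seen in 15.6% of all probe sets. The fitted change was 0.16 (SE 0.11, 95% confidence interval -0.09 to 0.40, n = 3 pairs of arrays, limma adjusted p = 0.44), which allows a fold of up to 1.32. That SE rests mostly on other probe sets of like intensity. Without the intensity trend it was 0.08 (limma adjusted p = 0.29). With the fatty acids it was 0.07 for oleate (interval -0.23 to 0.37) and -0.03 for palmitate (interval -0.34 to 0.27).

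Plin1 was the most variable of the others. It stood at 4.81, 4.38 and 4.82 in scrambled cells with BSA, oleate and palmitate, and at 5.14, 4.89 and 4.60 in Plin2 siRNA cells. The groups overlap, and the sign of the siRNA difference was positive with BSA (0.33) and oleate (0.51) and negative with palmitate (-0.22). The fitted siRNA change was 0.21 (SE 0.15, 95% confidence interval -0.11 to 0.53, n = 3 pairs of arrays, limma adjusted p = 0.43). It was 0.42 without either palmitate array, 0.06 without either oleate array and 0.14 without either BSA array, in no case past the threshold. Changes with oleate (-0.34, interval -0.73 to 0.05) and palmitate (-0.26, interval -0.65 to 0.13) did not pass either (limma adjusted p = 0.81 and 0.97). The oleate change was -0.11 without the scrambled oleate array and -0.56 without the Plin2 siRNA oleate array. The palmitate change was -0.58 without the scrambled palmitate array and 0.06 without the Plin2 siRNA palmitate array.

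Plin4 had its highest value with BSA under each siRNA. It stood at 4.81, 4.32 and 4.55 in scrambled cells with BSA, oleate and palmitate, and at 4.60, 4.37 and 4.35 in Plin2 siRNA cells. All 4 differences between a fatty acid array and the BSA array of its siRNA were negative, from -0.49 to -0.23. The fitted change with oleate was -0.36 (SE 0.14, 95% confidence interval -0.68 to -0.04, n = 2 pairs of arrays), with an unadjusted p of 0.031 and a limma adjusted p of 0.72. It was -0.23 without the scrambled oleate array and ran to -0.49 without the Plin2 siRNA oleate array. With palmitate it was -0.25 (interval -0.57 to 0.07, limma adjusted p = 0.95), and with Plin2 siRNA -0.11 (interval -0.37 to 0.15, limma adjusted p = 0.63).

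Signal limits what can be read for these 3 genes. The array medians over all probe sets were 4.94 to 5.02, and Plin4 lay below the median in all 6 arrays, whereas Plin1 and Plin5 were each above it in 1. Plin2 and Plin3 were above it in all 6. No detection call is used here, so how much of the values of Plin1, Plin4 and Plin5 is transcript and how much background was not tested.

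The genes whose profile lay closest to that of Plin2 were picked on these same 6 arrays, so their fall with its siRNA follows from the choice. None of them passed with either fatty acid. Closeness was measured as the root mean square difference between profiles over the 6 arrays, each centred on its own mean, and Plin2 was the only perilipin to span at least 1 log2 unit, the minimum for this comparison. The nearest were the kinase gene Sbk2 (0.34), the tubulin-binding gene Tppp3 (0.36) and the serine protease gene Prss46 (0.40), against 1.28 for a flat profile. Sbk2 stood at 7.74, 7.72 and 7.68 in scrambled cells with BSA, oleate and palmitate, and at 5.04, 5.51 and 4.87 in Plin2 siRNA cells. Tppp3 stood at 8.71, 8.74 and 8.82, and at 6.50, 6.31 and 6.25. Prss46 stood at 7.49, 7.14 and 7.94, and at 4.55, 4.69 and 5.11. All 3 genes had their scrambled arrays above their Plin2 siRNA arrays, which also follows from choosing them for closeness to Plin2. Their oleate changes were 0.22, -0.08 and -0.11 (limma adjusted p = 0.88 to 0.96). Their palmitate changes were -0.11, -0.07 and 0.51 (limma adjusted p = 0.84 to 0.99), and Prss46 was higher with palmitate than with BSA under both siRNAs, as Plin2 was. In all, 8 of the 19938 genes had an siRNA change at or below that of Plin2, itself included.

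PPAR target genes of fatty acid use, the class to which Plin2 belongs, were set beside it. Of 20 measured, 3 rose and 0 fell with oleate, and 17 had a fitted change above 0; the list median was 0.15, against -0.02 over all genes, of which 0.0802% passed. Angptl4, which inhibits lipoprotein lipase, moved by 2.32 in scrambled and 2.82 in Plin2 siRNA cells. Cpt1a, which admits fatty acids to mitochondria, moved by 1.41 and 1.38. Pdk4, which restrains pyruvate oxidation, moved by 1.28 and 1.58. Their fitted changes were 2.57 (SE 0.11), 1.40 (SE 0.08) and 1.43 (SE 0.12), each larger than the 0.71 of Plin2. The difference between genes was not tested. The list was chosen with earlier results of these data known, so its counts beside those of all genes are not an independent test.

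With palmitate 2 of these 20 genes rose, Angptl4 (2.19, SE 0.11, limma adjusted p = 7.1e-06) and Cpt1a (1.18, SE 0.08, limma adjusted p = 0.00018), and 0 fell, where 0.0100% of all genes passed. The list median was 0.02, against -0.01 over all genes. Pdk4 was lower with palmitate than with oleate (-0.89, SE 0.12, limma adjusted p = 0.011). It was the 1 gene of the list to pass in that comparison, where 0.281% of all genes passed. The others were not shown to respond alike. Of the 20 genes, 15 had a fitted difference below 0, with a list median of -0.16 against 0.01 over all genes. An unadjusted p under 0.05 was seen for 9 of them with limma, and for 1818 of all 19938 genes. For Plin2 the fitted changes with the 2 fatty acids were 0.71 and 0.66.

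**Figure D3:**
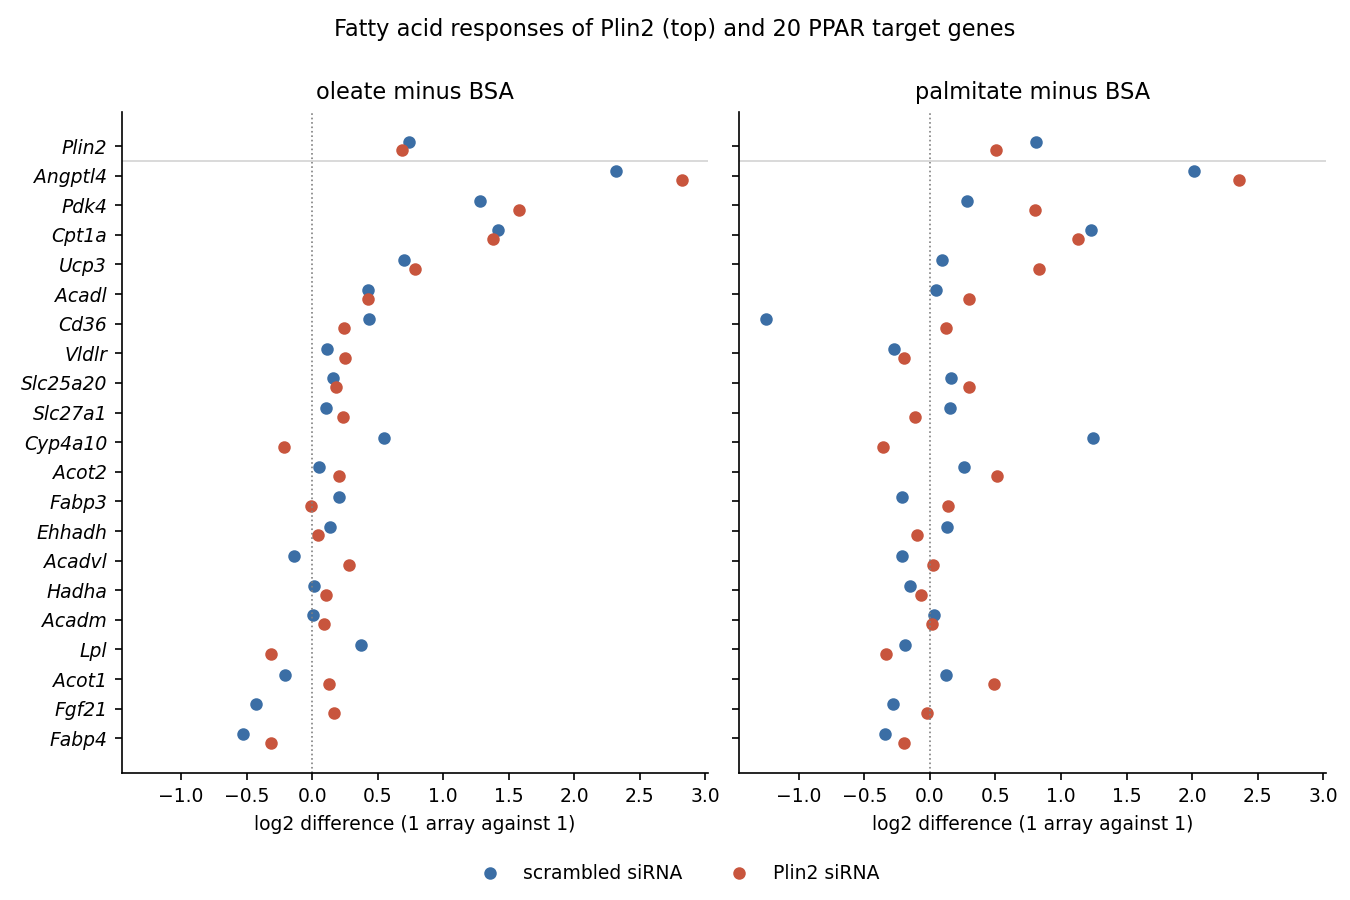
Log2 difference from BSA (horizontal axis) with oleate and palmitate for Plin2 (top row) and 20 PPAR target genes, 1 array against 1, coloured by siRNA. Plin2 lies to the right of 0 in all 4 comparisons, from 0.50 to 0.81. Angptl4, Cpt1a, Pdk4 and several other genes of the list also lie to the right of 0 in all 4, over other ranges.

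With Plin2 siRNA, 5 of the 20 PPAR targets rose and 3 fell, with a median of 0.10 against 0.00 over all genes, of which 17.1% passed. Cd36, which carries fatty acids into cells, rose by 2.21 (SE 0.23), the hormone gene Fgf21 changed by -2.05 (SE 0.09) and the fatty acid binding protein gene Fabp3 by -1.45 (SE 0.10). Of 8 PPAR receptors and coactivators, 2 rose and 0 fell: the coactivator Ppargc1a by 1.52 (SE 0.12) and the receptor Ppara by 0.54 (SE 0.13). None of the 8 passed with either fatty acid by limma, and 0 had an unadjusted p under 0.05. Over all genes 0.0802% passed with oleate and 0.0100% with palmitate, so 0 calls in so short a list says little.

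Genes for proteins that act on the fat of perilipin-coated droplets, or that regulate those proteins, were counted next. Of 11 genes of lipolysis and its regulators, 0 rose and 1 fell with Plin2 siRNA (median 0.01), a share of 9.09% called against 17.1% of all genes, and 3 had an unadjusted p under 0.05. The gene that fell was the monoacylglycerol lipase Abhd6, at 7.20, 7.22 and 7.12 in scrambled cells and 6.66, 6.41 and 6.36 in Plin2 siRNA cells, a change of -0.70 (SE 0.10, limma adjusted p = 0.00040). With Plin2 siRNA the triglyceride lipase Pnpla2 changed by 0.10 (SE 0.08) and its activator Abhd5, which perilipins hold away from it, by 0.11 (SE 0.07). The hormone-sensitive lipase Lipe changed by 0.01 (SE 0.10) and the Pnpla2 inhibitor G0s2 by -0.26 (SE 0.10). None of these changes passed. With oleate and with palmitate 0 of the 11 passed by limma, and 2 and 0 had an unadjusted p under 0.05. Over all 19938 genes 0.0802% and 0.0100% passed, and 1241 and 1037 genes had an unadjusted p under 0.05. At such shares 0 calls in a list of this size says little of its response.

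Of 16 genes for CIDE proteins and droplet assembly, 3 rose and 3 fell with Plin2 siRNA (median -0.01), a share of 37.5% called against 17.1% of all genes. The largest was Fitm1, which helps droplets form in muscle, with 5.93, 5.70 and 5.60 in scrambled cells and 7.05, 7.21 and 7.76 in Plin2 siRNA cells. Its change was 1.60 (SE 0.16, limma adjusted p = 4.2e-05). The spartin gene Spg20, which acts in droplet turnover, rose by 0.73 (SE 0.07) and the lipid transfer gene Vps13c by 0.44 (SE 0.09). Those that fell were Fitm2 (-0.39, SE 0.08), Faf2 (-0.37, SE 0.07) and Tmem159 (-0.33, SE 0.08). None of the 16 passed with oleate or palmitate by limma, where 0.0802% and 0.0100% of all genes passed. In either comparison 0 of the 16 had an unadjusted p under 0.05.

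In triglyceride synthesis, 0 of 12 genes rose and 3 fell with Plin2 siRNA, with a median of -0.15 and a share of 25% called against 17.1% of all genes. The acyltransferase Gpat3, of the first step of the pathway, stood at 7.29, 7.72 and 7.78 in scrambled cells with BSA, oleate and palmitate, and at 6.24, 6.71 and 6.47 in Plin2 siRNA cells. Its order of arrays within each siRNA was that of Plin2. That likeness was picked out after the values were seen, and the share of all genes with the same order was not counted. Its siRNA change was -1.12 (SE 0.09, limma adjusted p = 1.3e-05), while its oleate change of 0.46 (SE 0.12) did not pass (limma adjusted p = 0.36). Dgat2, of the last step, changed by -0.60 (SE 0.10) and Agpat2 by -0.55 (SE 0.09). With oleate and palmitate 0 of the 12 passed by limma, where 0.0802% and 0.0100% of all genes passed. An unadjusted p under 0.05 was seen for 3 and 1 of the 12. The phosphatidate phosphatase gene Lpin3 was higher with palmitate than with oleate (0.57, SE 0.09, limma adjusted p = 0.036), where 0.281% of all genes passed.

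**Figure D4:**
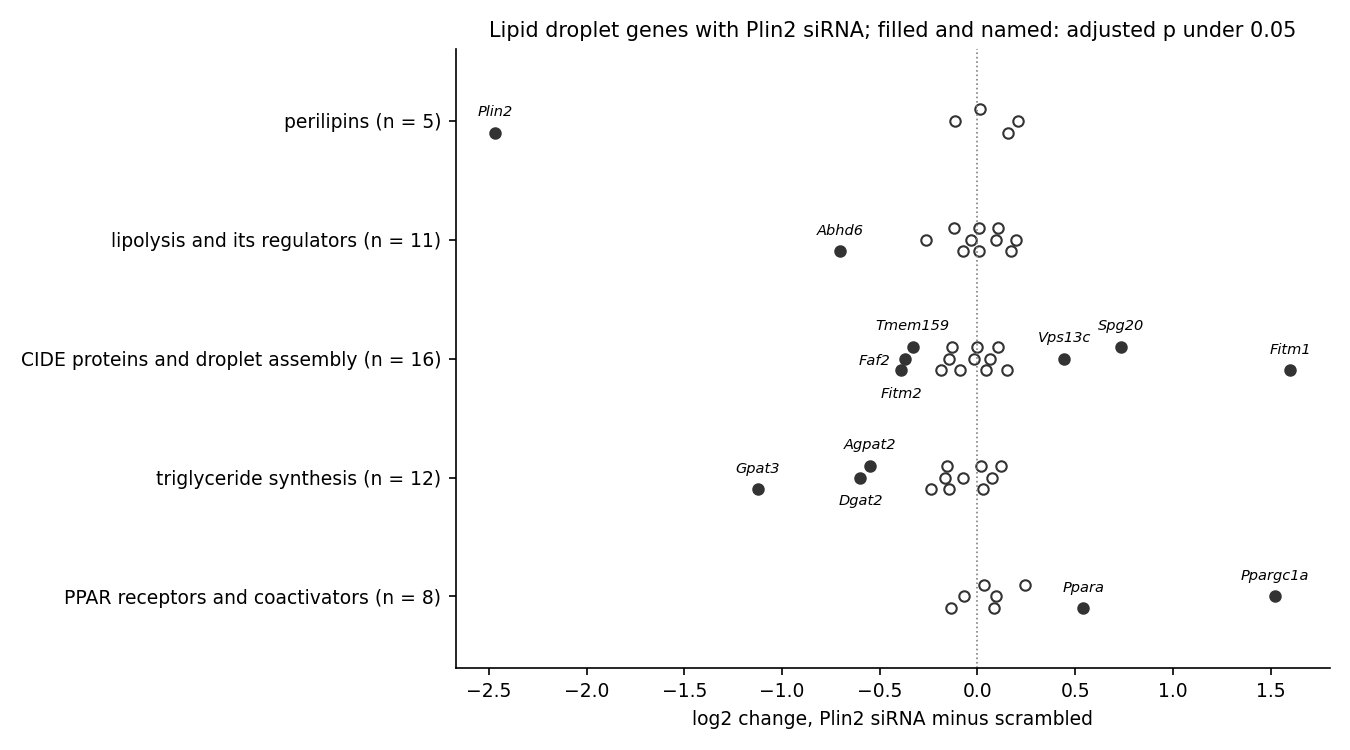
Fitted log2 change with Plin2 siRNA (horizontal axis) of the perilipins and of 4 lists of lipid droplet and PPAR genes (rows), 1 point per gene, offset vertically for legibility; filled, named points passed adjusted p under 0.05. Among the perilipins Plin2 at -2.47 is the only filled point, and the others lie between -0.11 and 0.21.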

How the data were processed

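Total RNA (100 ng, integrity number above 8) was labelled with biotin for Affymetrix whole-transcript arrays. The deposited values are log2 expression per probe set, made by the authors with RMA per the submitters' processing notes (version and build not given in the sources used here); base 2 was inferred from that method and from the range of values. Of 35556 probe sets, the platform annotation tied 21789 to 1 symbol and 1621 to several, and did not list 12146. Values were used as deposited.

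limma 3.58.1 (R 4.3.3), with treatment and siRNA as terms and an intensity trend in eBayes, was run over the 21789 probe sets, with Benjamini-Hochberg adjustment over all of them. The fit has 2 residual degrees of freedom plus 9.21 borrowed across probe sets; the interaction model has 1. It was tested on simulated data. Each probe set has 1 error variance for all changes in a fit, weighted mostly toward that of probe sets of like intensity. With 1 array per condition, it also holds any difference of the siRNA change between treatments.

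The members and lists were chosen with earlier results of these data known. Of 118 listed genes, 109 had a probe set of their own symbol. Named genes were the perilipins and up to 3 list members past the threshold per list and comparison. The 3 profiles nearest to a member spanning at least 1 log2 unit were named too. Lipolysis genes that did not pass, Adipoq, Pparg, Cebpa and Pnpla3 were named for their roles after their values were seen. Droplet assembly genes that fell with Plin2 siRNA were named beside those that rose, also after their values were seen. Promoter windows came from RefSeq (GRCm38.p6).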

Additional observations from a re-analysis of the deposited data

Results flagged for a closer look

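Single fatty acid responses ran opposite ways under the siRNAs for a pair of perilipins. Palmitate moved Plin1 by 0.013 in scrambled cells and by -0.54 in Plin2 siRNA cells. Oleate moved Plin3 by 0.036 in scrambled cells and by -0.11 in Plin2 siRNA cells. Each value is 1 array against 1, and the difference for a single fatty acid was not tested; the interaction over both fatty acids did not pass for either gene (limma adjusted p = 1.00 for each).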

How the results depend on the processing

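The fall of Plin2 with its siRNA passed in all 14 other settings run (-2.53 to -2.37). Its rise with oleate lost the call without the intensity trend (0.71, limma adjusted p = 0.58), with all probe sets in the fit (0.71, 0.52), after quantile normalization (0.72, 0.056), with 1 term for any fatty acid (0.69, 0.13) and without the scrambled BSA array; leaving out each array in turn gave 0.62 to 0.81. With palmitate Plin2 gained the call on the 4 BSA and palmitate arrays, with the change (0.66) and SE (0.10) of the main fit. Leaving out arrays gave 0.52 to 0.80. The other 4 perilipins passed in no comparison under any setting run; their lowest limma adjusted p was 0.054, for Plin1 with siRNA without a palmitate array. Signs that turned were all uncalled: after centring array medians, Plin3 with siRNA (-0.0056) and between fatty acids (-0.023), and the Plin5 interaction (0.034, and 0.032 after quantile normalization). Leaving out each array, differences between fatty acids ran from -0.24 to 0.40 for Plin1, -0.20 to 0.084 for Plin2, -0.082 to 0.090 for Plin3 and -0.024 to 0.24 for Plin4. Plin3 ran from -0.026 to 0.071 with siRNA, -0.12 to 0.048 with oleate and -0.095 to 0.026 with palmitate, and Plin1 from -0.58 to 0.058 with palmitate. Other probe sets of a perilipin were not run, since each has 1. The interaction could not be fitted with an array left out. The labels carry no replicate numbers to use as a block; siRNAs were compared within each treatment and fatty acids within each siRNA. With siRNA as the single term, which drops that matching, the change of Plin2 with siRNA was -2.47 (SE 0.21, limma adjusted p = 3.5e-05).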
